A study of Mus musculus with 29 samples.

Results

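Transcripts of 10 genes of inositol metabolism were followed across genotype and drug treatment in mouse prefrontal cortex, with lithium as the treatment of interest. They are Impa1, Impa2, Inpp1 and Bpnt1 (phosphatases that lithium inhibits), Isyna1 and Slc5a3 (the supply of inositol), and Itpka, Itpkb, Itpk1 and Ipmk (inositol phosphate kinases). The genes were listed by their known roles, with earlier results of these data known. All 10 were present among the 18240 genes of the table. The mice were C57BL/6J, at postnatal day 40 and of both sexes, and RNA was profiled by bulk sequencing of polyadenylated transcripts. Carriers of the Tbr1+/K228E genotype (heterozygotes, HT) received vehicle (6 libraries, 3 female and 3 male), fluoxetine (8 libraries, 4 female and 4 male) or lithium (7 libraries, 3 female and 4 male). Wild-type mice (WT) received vehicle only (8 libraries, 4 female and 4 male) and neither drug. The K228E allele is a missense change of Tbr1, whose T-box protein regulates transcription in cortical neurons, those of the deep layers above all. No dose, route or duration of treatment is given in the labels, which carry the same batch for all 29 libraries and do not state that each library came from a separate animal. The p-values therefore measure the spread between these libraries.

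Cells release inositol 1,4,5-trisphosphate from membrane phosphoinositides when phospholipase C is activated, and that messenger opens calcium stores. It is then taken apart by phosphatases back to free myo-inositol, or built up by kinases into higher inositol phosphates. Lithium inhibits the inositol monophosphatases, inositol polyphosphate 1-phosphatase and bisphosphate nucleotidase in an uncompetitive manner, which is the basis of the inositol depletion view of its action in brain. It acts there on enzyme activity, which transcript levels do not report.

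The libraries held 22.81 M to 31.71 M reads, and values are the authors' read counts divided by a size factor for each library, called normalised read counts here. The mean of Tbr1 was 2866 ± 445 (SD, n = 8) in WT vehicle, 4067 ± 392 in HT given vehicle (n = 6), 4159 ± 590 in HT given fluoxetine (n = 8) and 4425 ± 321 in HT given lithium (n = 7). It was higher than in WT by 0.52 ± 0.090, 0.54 ± 0.084 and 0.63 ± 0.087 in these HT groups (log2 difference with SE, limma adjusted p = 0.0164, 0.00504 and 0.000326). Leaving out HT vehicle female 1 (adjusted p = 0.0643) or male 3 (0.0962) ended the call for HT vehicle, and fitting only the groups compared (0.0573) that for HT fluoxetine. A count over the whole gene does not separate the K228E allele from the normal one, so it is no check of the genotype. Excitatory neuron markers were present in every library, with a summed level of 120411 or more, which is no check of the dissections. In 10 of the 29 libraries (3 WT vehicle, 1 HT vehicle, 5 HT fluoxetine and 1 HT lithium) the mean of 14 striatal or 8 olfactory marker genes lay more than 1 (log2) above the median library. Each comparison below was also fitted without those 10 libraries, where female 4 was the only HT fluoxetine female left. In the comparisons without fluoxetine none of the 10 inositol genes was called, as none was with all 29 libraries. With fewer libraries a call is harder to reach, so this outcome is no check of the dissections. In bulk tissue, fewer cells of a type and less RNA per cell cannot be told apart.

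Among the 10 genes, Itpka was by far the most abundant per kb of annotated exon and Impa2 the least. That length takes in all annotated exons of a gene and need not be that of the transcripts expressed, so levels per kb depend on it. Itpka encodes inositol trisphosphate 3-kinase A, an enzyme of dendritic spines, and it averaged 2179 normalised read counts per kb of exon, above 97.6% of the genes tested. Bpnt1, which removes a phosphate from adenosine bisphosphate and from inositol bisphosphate, averaged 632 per kb. Itpk1, which turns trisphosphates into tetrakisphosphates, averaged 483 per kb. Next came Isyna1 at 341 per kb and Impa1 at 315 per kb, which are close in level beside their ranges over libraries. Ipmk averaged 140 per kb and Inpp1 135 per kb, and these also overlapped. The lowest were Itpkb at 78.6, Slc5a3 at 66.9 and Impa2 at 28.5 per kb, the last above 29.1% of the genes tested. Among the monophosphatases, Impa1 exceeded Impa2 per kb in every library, by 10.7 ± 1.27 times in WT vehicle (SD, n = 8) and by 11.1 ± 0.56 times in HT lithium (n = 7). Between libraries the coefficient of variation ran from 4.34% for Bpnt1 to 11.6% for Itpka, and the smallest number of reads behind any value was 113, for Impa2.

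**Figure D1:**
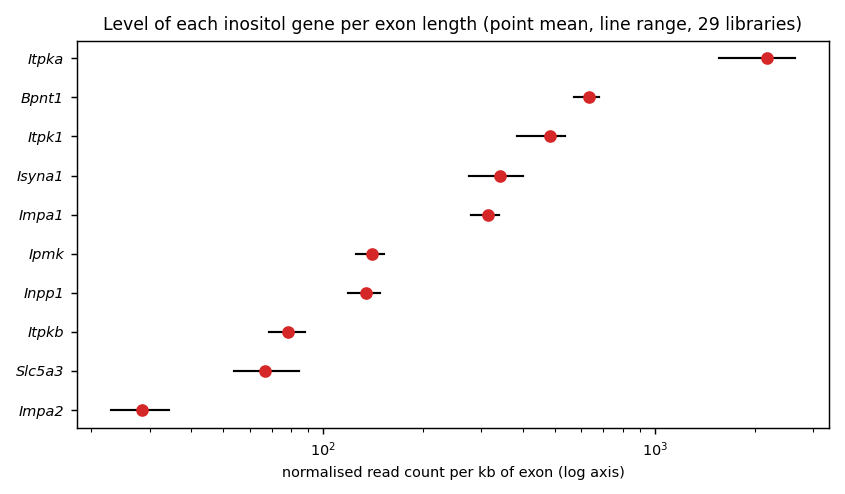
Mean normalised read count per kb of annotated exon (log axis) of the 10 inositol genes, with the range over all 29 libraries as a line. Itpka lies at 2179 per kb and Impa2 at 28.5 per kb.

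None of the 10 genes passed the test for lithium against vehicle in HT mice (limma, Benjamini-Hochberg adjusted over 17881 genes, threshold 0.05). The estimated folds, lithium over vehicle, ran from 0.942 for Isyna1 to 1.11 for Slc5a3, and the 95% intervals of all 10 genes lay between folds of 0.856 and 1.22. Of the 10 genes, 8 had a positive log2 difference, with a median of 0.071, and 3 had an unadjusted p under 0.05. Among all genes tested the percentage called in this comparison was 0, the median log2 difference was -0.0037, 48.4% were positive and 2030 genes (11.4%) had an unadjusted p under 0.05. On the recovered reads, edgeR called 0 genes and DESeq2 called 32, with 0 of the 10 inositol genes among them in either. A missed threshold does not show that lithium leaves these transcripts unaltered.

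**Figure D2:**
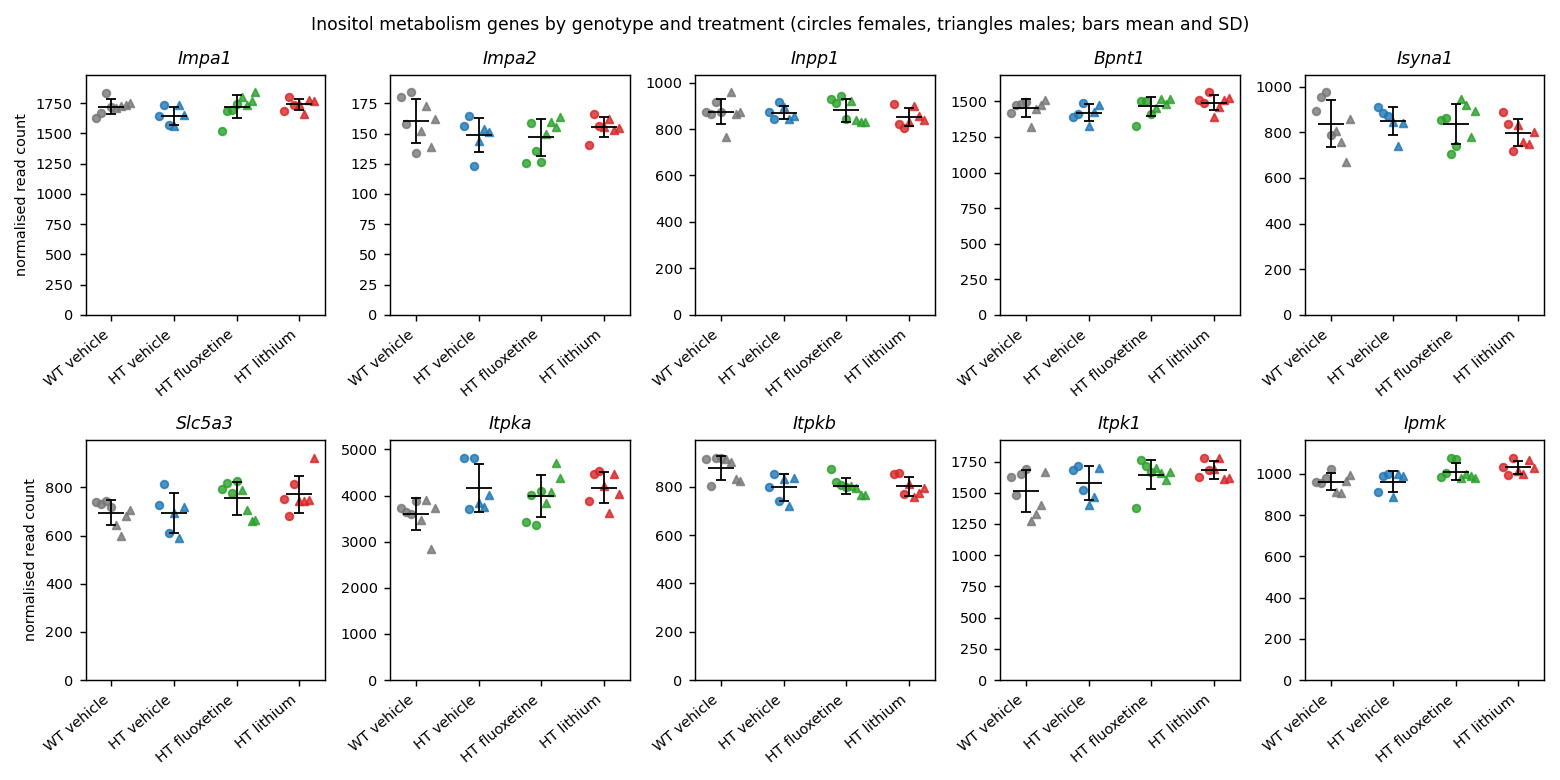
Normalised read count of the 10 inositol genes in each library, by genotype and treatment, with circles for females, triangles for males and black bars for the mean and SD of a group; each vertical axis starts at 0. The groups overlap for every gene, and the HT lithium libraries of Ipmk lie between 996 and 1079.

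The phosphatases are the enzymes that lithium inhibits. Impa1, the main inositol monophosphatase, lies at chr3:10311956-10331439 (GRCm38, minus strand). Its lowest, median and highest normalised read counts were 1558, 1646 and 1732 in HT vehicle, 1664, 1745 and 1799.6 in HT lithium, 1516, 1736 and 1839 in HT fluoxetine, and 1627, 1720.4 and 1837 in WT vehicle. Of the 7 lithium libraries, 4 lay above all 6 vehicle libraries of HT, and all 7 lay above the vehicle median. The log2 difference was 0.079 ± 0.036 (SE, fold 1.06, limma adjusted p = 0.414).

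Impa2, the second monophosphatase, is carried on chromosome 18. Its normalised read counts ran from 123 to 164 in HT vehicle (median 152), from 140.2 to 167 in HT lithium (median 155), from 126 to 164 in HT fluoxetine (median 153) and from 134 to 184 in WT vehicle (median 160.2). These ranges overlapped almost entirely, and lithium minus vehicle was 0.066 ± 0.080 (SE, log2, limma adjusted p = 0.775). Over left-out libraries it ran from 0.0031 without HT vehicle female 3 to 0.11 without HT vehicle female 2. An antisense transcript model, B430212C06Rik, covers 23.6% of the exon bases of Impa2. Its mean value was 7.97 against 153 for Impa2, and the strand setting of the counting is not given in the sources used here.

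Inpp1, which removes the 1-phosphate from inositol bisphosphate and trisphosphate, lies at chr1:52785427-52817688 on the minus strand. It ran from 842 to 915 in HT vehicle (median 865), from 804 to 907 in HT lithium (median 839), from 829.1 to 941 in HT fluoxetine (median 878) and from 767 to 958 in WT vehicle (median 873). Of the 7 lithium libraries of Inpp1, 4 lay below all 6 vehicle libraries of HT. The lithium difference was -0.035 ± 0.044 (SE, log2, limma adjusted p = 0.787). Bpnt1, at chr1:185332149-185357777 on the plus strand, ran from 1326 to 1491 in HT vehicle (median 1419), from 1391 to 1564 in HT lithium (median 1507), from 1325 to 1519 in HT fluoxetine (median 1492) and from 1317 to 1509 in WT vehicle (median 1477). Its lithium difference was 0.075 ± 0.037 (SE, log2, limma adjusted p = 0.443). For the 4 phosphatases together, the largest fold under lithium was therefore 1.06 and the smallest 0.976.

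Supply of inositol was read from a transporter and a synthase, whose estimates pointed in opposite directions. Slc5a3 encodes the sodium/myo-inositol cotransporter SMIT1 and lies at chr16:92058322-92087473 on the plus strand. In HT vehicle the libraries read 612, 729 and 816 in females and 589, 694 and 719 in males. In HT lithium they read 679.6, 750.1 and 815 in females and 742.8, 743, 748 and 924 in males. WT vehicle ran from 598 to 742 (median 713) and HT fluoxetine from 662 to 826 (median 783). A single lithium library, male 4 at 924, lay above all vehicle libraries, while 6 of 7 lay above the vehicle median. The difference, 0.15 ± 0.066 (SE, log2, fold 1.11, limma adjusted p = 0.398), was the largest among the 10 genes. Without HT vehicle female 3 it was 0.096 (limma adjusted p = 0.622), where Ipmk was at 0.11. By sex it was 0.063 ± 0.097 in females and 0.24 ± 0.091 in males, and the difference between the sexes was not called (-0.18 ± 0.13, limma adjusted p = 0.9997). Over the 10 genes the female minus male difference of the lithium difference ran from -0.18 to 0.069 (log2, 3 positive). None was called, nor was any gene of the table (percentage called 0; edgeR 0, DESeq2 0; 523 genes and 0 of the 10 at an unadjusted p under 0.05).

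The exons of Slc5a3 overlap those of Mrps6, a mitochondrial ribosomal protein gene on the same strand, over 159 bases or 1.46% of the Slc5a3 exon length. Mrps6 had a lithium difference of 0.13 ± 0.067 (SE, log2, limma adjusted p = 0.476), and reads from the shared bases cannot be told apart between these genes. Per kb, Slc5a3 stood at 0.247 ± 0.018 of Mrps6 in HT lithium (SD, n = 7) and at 0.242 ± 0.020 in HT vehicle (n = 6). That ratio differed by less than the spread between libraries.

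Isyna1 encodes myo-inositol-3-phosphate synthase, which makes myo-inositol 3-phosphate from glucose 6-phosphate, and lies at chr8:70594373-70597290 on the plus strand. Its normalised read counts ran from 739 to 912 in HT vehicle (median 860.4), from 718 to 889 in HT lithium (median 802), from 705 to 944 in HT fluoxetine (median 858) and from 671 to 975 in WT vehicle (median 832). WT vehicle alone spanned the whole range of the other groups. Lithium minus vehicle was -0.087 ± 0.067 (SE, log2, fold 0.942, limma adjusted p = 0.628), the lowest of the 10 genes. Without HT lithium female 3 it was -0.043 (limma adjusted p = 0.884).

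Of the kinases, Ipmk had the smallest p under lithium. It encodes inositol polyphosphate multikinase, which makes pentakisphosphates and also phosphorylates phosphoinositides in the nucleus, and lies at chr10:71347763-71433327 on the plus strand. The HT vehicle libraries read 912, 988 and 1001 in females and 889, 988 and 1000.4 in males. The HT lithium libraries read 996, 1032 and 1079 in females and 1002, 1016, 1027 and 1069 in males. So 6 of 7 lithium libraries lay above all 6 vehicle libraries, and the remaining one, female 2 at 996, lay among them. HT fluoxetine ran from 982 to 1079 (median 996) and WT vehicle from 906 to 1024 (median 965). The lithium difference was 0.10 ± 0.036 (SE, log2, fold 1.07, 95% interval 1.02 to 1.13), with an unadjusted p of 0.00991 and a limma adjusted p of 0.311. It was 0.0998 ± 0.053 in females and 0.10 ± 0.050 in males.

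The mean of 7 excitatory neuron markers was, like that of Ipmk, highest in HT lithium. It was 0.083 in HT lithium, 0.017 in HT fluoxetine, -0.010 in HT vehicle and -0.082 in WT vehicle (log2, centred over all libraries). Their summed level ran from 139650 to 162815 in HT vehicle and from 141336 to 167559 in HT lithium, and 0 of the 7 markers were at 0 in either group. Over the 29 libraries Ipmk and this mean had a Pearson r of 0.485 (permutation p = 0.00758, adjusted over 100 relations 0.0632) and a Spearman rho of 0.619 (permutation p = 0.00068, adjusted 0.017). After each condition's mean was removed r was 0.281, and without the 2 libraries farthest from the median of the markers r was 0.549. Their part in the values of Ipmk was not tested.

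Itpk1 encodes inositol tetrakisphosphate 1-kinase and lies at chr12:102568582-102704930 on the minus strand. It ran from 1399.8 to 1712 in HT vehicle (median 1603), from 1610.4 to 1781 in HT lithium (median 1686), from 1379 to 1759.5 in HT fluoxetine (median 1669.6) and from 1277 to 1688 in WT vehicle (median 1553). All 7 lithium libraries lay above the HT vehicle median, and 2 lay above every HT vehicle library. The difference was 0.098 ± 0.060 (SE, log2, limma adjusted p = 0.535). Itpka and Itpkb, the 3-kinases that turn the calcium-releasing trisphosphate into tetrakisphosphate, had lithium differences of 0.015 ± 0.074 (limma adjusted p = 0.958) and 0.015 ± 0.046 (limma adjusted p = 0.930).

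**Figure D3:**
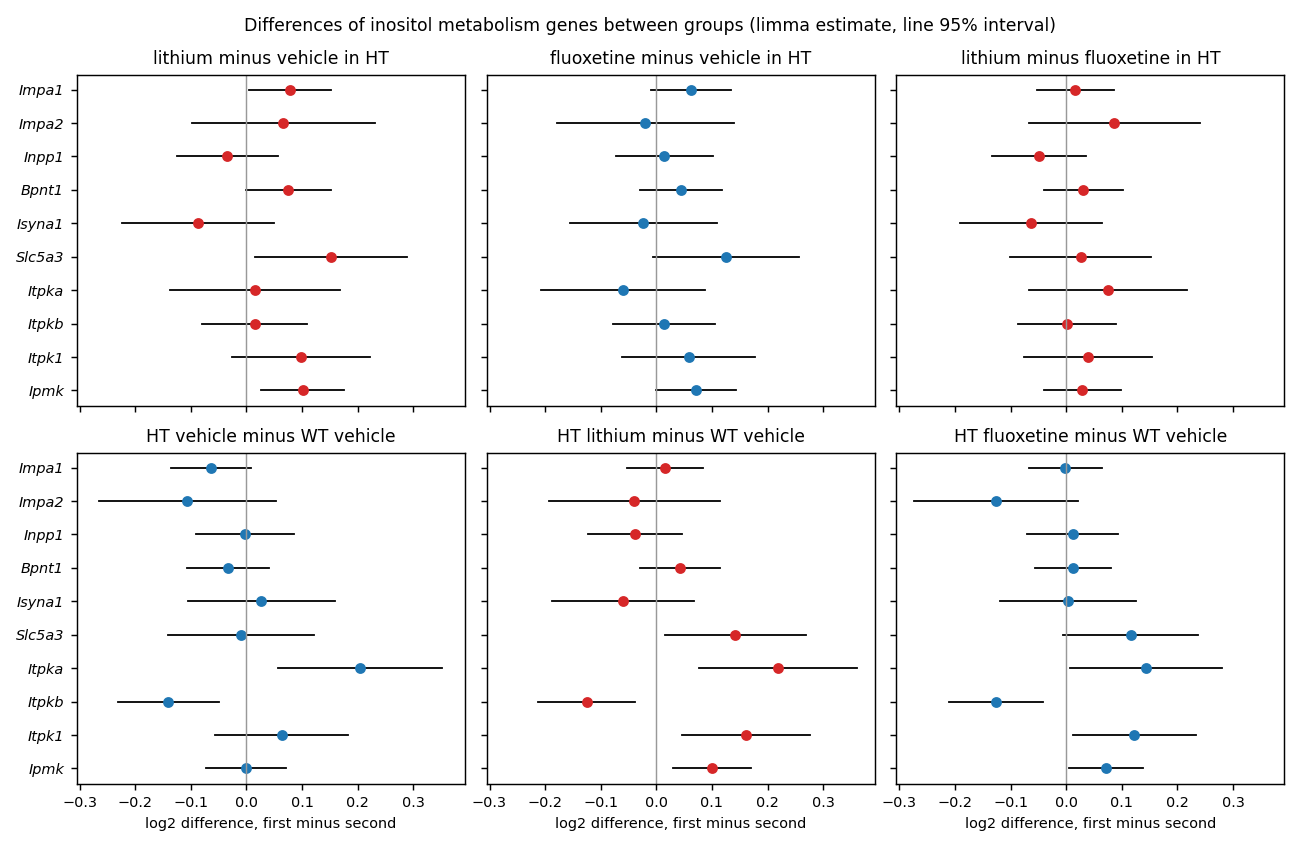
Log2 differences (first group minus second) of the 10 inositol genes in 6 comparisons, as points with 95% intervals as lines, from the limma fit. In the upper row, within HT mice, all estimates lie between -0.087 and 0.15; in the lower row, against WT, Itpka lies to the right of 0 and Itpkb to the left in each panel.

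Fluoxetine served as the other drug. No inositol gene passed the test against vehicle in HT mice, where the percentage called over all genes was 0 (limma; edgeR called 0, DESeq2 6), 1397 genes had an unadjusted p under 0.05 and 0 of the 10 inositol genes did. The 10 log2 differences ran from -0.060 for Itpka to 0.13 for Slc5a3 (median 0.029, 7 positive), beside a median of -0.0044 and 47.8% positive over all genes. Slc5a3 and Ipmk again had the largest estimates, at 0.13 ± 0.064 and 0.072 ± 0.035 (SE, log2, limma adjusted p = 0.636 for each). Slc5a3 was at 0.070 without HT vehicle female 3 and 0.082 without HT vehicle male 2, and Ipmk at 0.045 without HT vehicle male 1. Both drug comparisons use the same 6 vehicle libraries, so these estimates are not independent of those for lithium.

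Lithium was also set directly against fluoxetine, a difference of means that leaves out the vehicle libraries. The vehicle libraries enter its SE and p-values only, through the spread that all 29 libraries share. The differences ran from -0.063 for Isyna1 to 0.086 for Impa2 (median 0.028, 8 positive), and the 95% intervals lay between folds of 0.876 and 1.18. Slc5a3 differed by 0.026 ± 0.062 and Ipmk by 0.029 ± 0.034 between the drugs (SE, log2, limma adjusted p = 0.990 and 0.985). None of the 10 genes was called, as none was over the whole table (percentage called 0; edgeR 0, DESeq2 2; 626 genes and 0 of the 10 at an unadjusted p under 0.05).

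Between the genotypes, the pair of 3-kinases lay on opposite sides. Itpka (chr2:119742337-119751263, plus strand) had higher estimates in HT than in WT, and Itpkb (chr1:180330485-180424802, plus strand), the 3-kinase of immune and glial cells as well as neurons, had lower ones. Neither passed the test. None of the 10 genes was called in HT vehicle against WT vehicle, where 0.207% of all genes were called (37 genes; 29 by edgeR and 212 by DESeq2, with 0 of the 10 in each). The 10 log2 differences had a median of -0.0063 and 3 were positive, beside 50.1% positive over all genes, and Itpka and Itpkb were the 2 with an unadjusted p under 0.05, where 12.3% of all genes lay.

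The lowest, median and highest normalised read counts of Itpka were 2841, 3687 and 3911 in WT vehicle, 3700.0, 3929.8 and 4823 in HT vehicle, 3356, 4047 and 4695 in HT fluoxetine, and 3629.6, 4201 and 4524 in HT lithium. All 6 HT vehicle libraries lay above the WT median and 3 lay above every WT library. HT vehicle minus WT was 0.20 ± 0.072 (SE, log2, fold 1.15, limma adjusted p = 0.214). WT vehicle male 3, at 2841, lay far below the other WT libraries, and without it the difference was 0.16 (limma adjusted p = 0.408). Over all left-out libraries it ran from 0.16 to 0.27 (limma adjusted p from 0.0807 to 0.468). With the striatal and olfactory marker means as covariates it was 0.19 (limma adjusted p = 0.0965). The alternatives besides leaving out a library ran from 0.15 to 0.23 (adjusted p from 0.0965 to 0.705).

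Itpkb ran from 801 to 921 in WT vehicle (median 908), from 719 to 855 in HT vehicle (median 816), from 766 to 873 in HT fluoxetine (median 800.4) and from 757 to 856 in HT lithium (median 793). In HT vehicle 3 libraries lay below every WT library and none above the WT median. The difference, -0.14 ± 0.044 (SE, log2, fold 0.907, limma adjusted p = 0.167), had the smallest p of the 10 genes. Per kb, Itpka exceeded Itpkb by 23.6 ± 2.24 times in WT vehicle (SD, n = 8), 30.2 ± 4.91 times in HT vehicle (n = 6), 28.7 ± 4.22 times in HT fluoxetine (n = 8) and 30.002 ± 2.78 times in HT lithium (n = 7). The highest ratio among WT libraries was 26.22 and the lowest among HT lithium libraries 26.23, while HT vehicle reached down to 24.9 and HT fluoxetine to 22.6. No test was made on this ratio, since the pair was picked out after its values were seen.

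The upstream sequences of this pair are shown because Tbr1 encodes a T-box factor and the estimates of the 3-kinases lay opposite ways in its carriers. That of Inpp1 is added as the only one of the 8 matched genes with a T-box core. Each run gives the 250 bases before the gene start, 5′ to 3′ on the gene's strand, from RefSeq on GRCm38.p6, with matches to the T-box core GGTGTG on either strand in capitals. The windows are chr2:119742087-119742336 (plus strand) for Itpka, chr1:180330226-180330475 (plus strand) for Itpkb and chr1:52817689-52817938 (minus strand) for Inpp1.
Itpka: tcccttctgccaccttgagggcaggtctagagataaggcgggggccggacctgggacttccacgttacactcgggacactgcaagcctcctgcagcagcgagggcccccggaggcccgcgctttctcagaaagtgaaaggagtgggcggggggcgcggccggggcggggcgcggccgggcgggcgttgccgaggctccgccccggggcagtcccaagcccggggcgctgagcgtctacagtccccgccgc
Itpkb: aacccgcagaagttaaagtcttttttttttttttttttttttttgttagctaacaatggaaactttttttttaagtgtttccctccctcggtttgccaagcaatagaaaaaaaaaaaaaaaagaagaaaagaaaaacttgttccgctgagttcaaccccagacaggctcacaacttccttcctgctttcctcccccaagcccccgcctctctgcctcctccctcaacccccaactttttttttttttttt
Inpp1: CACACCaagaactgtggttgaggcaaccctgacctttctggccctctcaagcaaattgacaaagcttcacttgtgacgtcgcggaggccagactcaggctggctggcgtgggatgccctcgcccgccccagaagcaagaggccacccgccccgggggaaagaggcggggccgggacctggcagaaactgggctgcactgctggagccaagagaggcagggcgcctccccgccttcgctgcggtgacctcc
The core was found in 16.3% of 32851 promoter windows of this length, and the longer T-box motif AGGTGTGA, which contains the core, in 1.12%, both counted on either strand. Itpka and Itpkb held neither in these windows, and Inpp1 held 1 core at the far end of its window. The core of the tonicity element, TGGAAA on either strand, was found in 18.6% of windows, once in Itpkb and not in Slc5a3. The windows differ in base composition, with 72.8% G and C in Itpka and 38.4% in Itpkb beside a median of 52.4%. Impa1 and Impa2 had no entry in the promoter table.

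The lithium group was also set against WT vehicle, a contrast in which genotype and drug differ together and cannot be told apart. It shares the WT libraries with the genotype comparison and the lithium libraries with the drug comparison. None of the 10 inositol genes was called, while 1.9% of all genes were (340 genes, 238 higher and 102 lower). By edgeR 304 genes and 0 of the 10 passed, and by DESeq2 588 genes and 1 of the 10, Itpka (adjusted p = 0.0484). An unadjusted p under 0.05 was found for 5 of the 10, beside 18.6% of all genes, and 6 of the 10 differences were positive with a median of 0.029.

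Those 5 genes were Itpka, Ipmk, Itpkb, Itpk1 and Slc5a3, that is, the 4 kinases and the transporter. Itpka was 0.22 ± 0.069 above WT (SE, log2, fold 1.16, limma adjusted p = 0.0955), with 5 of 7 lithium libraries above all 8 WT libraries. Ipmk was 0.10 ± 0.034 above WT (limma adjusted p = 0.117), with 4 of 7 libraries above all WT libraries. Itpk1 was 0.16 ± 0.056 above WT (limma adjusted p = 0.125), and all 7 lithium libraries exceeded the WT median. Itpkb was -0.13 ± 0.043 from WT (limma adjusted p = 0.120), with 4 of 7 libraries below every WT library and 0 above the WT median. Slc5a3 was 0.14 ± 0.062 above WT (limma adjusted p = 0.216), with 6 of 7 libraries above every WT library. Some of these margins were narrow: the highest WT library read 741.7, and lithium male 2, male 1 and male 3 read 742.79, 742.83 and 748.3.

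Leaving out 1 WT library changed 1 call in this contrast. Without WT vehicle male 4, Itpk1 passed (0.20, limma adjusted p = 0.0257), and the adjusted p of Itpka was 0.0579 and that of Ipmk 0.0588. Without WT vehicle male 3, Itpka was 0.17 above WT (limma adjusted p = 0.212). With the striatal and olfactory marker means as covariates it was 0.12 (limma adjusted p = 0.416). The 4 phosphatases and Isyna1 lay between -0.060 and 0.042 from WT, with limma adjusted p from 0.528 for Bpnt1 to 0.846 for Impa1.

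HT fluoxetine was set against the same WT libraries, and here too genotype and drug differ together and cannot be told apart. Since the WT libraries are shared, these differences are not independent of those of HT vehicle and HT lithium from WT. Itpkb was at -0.13 ± 0.041 (limma adjusted p = 0.278), Itpka at 0.14 ± 0.066 (0.520), Itpk1 at 0.12 ± 0.054 (0.489) and Ipmk at 0.071 ± 0.032 (0.512), all log2 with SE. Without WT vehicle male 3 Itpka was at 0.096 (0.769), and with the striatal and olfactory marker means as covariates at 0.13 (0.431). For Itpkb 5 of 8 fluoxetine libraries lay below every WT library. Slc5a3 was at 0.12 ± 0.059 (limma adjusted p = 0.560), with 5 of 8 fluoxetine libraries above every WT library. An unadjusted p under 0.05 was found for 4 of the 10 genes, beside 9.26% of all genes. None of the 10 was called, where 0.19% of all genes were (34 genes; 32 by edgeR and 96 by DESeq2). In each of the 6 pairs of conditions, 0 of the 10 inositol genes had groups without overlap, a separation that was rare over all genes too. It was found for 0.542% of them in HT lithium against HT vehicle, 0.0615% in HT fluoxetine against HT vehicle and 0.0447% in HT lithium against HT fluoxetine. Against WT vehicle it was found for 0.336% with HT vehicle, 0.442% with HT lithium and 0.0615% with HT fluoxetine.

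Some cell type markers were called against WT in HT lithium and HT vehicle, and none in HT fluoxetine. Among 78 markers of 10 lists, limma called 5 in HT lithium against WT vehicle (6.41%, beside 1.9% of all genes). Neurod6, of excitatory neurons, rose by 0.46 ± 0.095 (adjusted p = 0.0113). The astrocyte markers Gja1 and F3 fell by 0.13 ± 0.035 (adjusted p = 0.0487) and by 0.17 ± 0.038 (0.0169), the endothelial marker Cldn5 fell by 0.28 ± 0.064 (0.0227) and the pericyte marker Pdgfrb fell by 0.20 ± 0.046 (0.0247). The excitatory list as a whole had 6 of 7 positive (median 0.12), the astrocyte list 2 of 9 (median -0.13) and the endothelial and mural list 3 of 8 (median -0.12, up to 0.087). In HT vehicle against WT, 2 of the 78 were called (2.56%, beside 0.207% of all genes), both astrocyte markers, Gja1 lower (-0.19 ± 0.037, limma adjusted p = 0.0313) and Aldh1l1 higher (0.18 ± 0.033, 0.0212). All 5 calls for HT lithium were lost without the 10 libraries of high striatal or olfactory markers (adjusted p from 0.0651 to 0.420) and without HT lithium female 3 (0.0573 to 0.0887). Without those 10 libraries the differences were 0.37 for Neurod6, -0.10 for Gja1, -0.19 for F3, -0.34 for Cldn5 and -0.25 for Pdgfrb. Those for HT vehicle were lost without the 10 libraries (0.309 for Aldh1l1 and 0.341 for Gja1), with only the groups compared (0.130 and 0.138 in that order), and without HT vehicle female 1, HT vehicle female 3 or WT vehicle female 2 (0.0563 to 0.0808). Gja1 in HT lithium lost its call in 17 of 24 alternatives. In HT fluoxetine against WT vehicle 0 of the 78 were called, beside 0.19% of all genes. There 12 (15.4%) had an unadjusted p under 0.05, beside 9.26% of all genes. None of the 78 was called for lithium against vehicle, where 12 (15.4%) had an unadjusted p under 0.05, beside 11.4% of all genes. The mean of the 9 astrocyte markers was -0.052 in HT lithium, -0.013 in HT fluoxetine, -0.018 in HT vehicle and 0.072 in WT vehicle (log2, centred). Their summed level ran from 111183 to 131068 in WT vehicle, from 111097 to 121095 in HT vehicle, from 99548 to 128086 in HT fluoxetine and from 114154 to 121122 in HT lithium, with 0 of the 9 at 0 in any group.

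Library by library, Itpka followed the excitatory neuron markers more closely than any other list. Pearson's r was 0.746 and Spearman's rho 0.750 over 29 libraries, each with a permutation p of 1e-05, the smallest that 100000 resamples can give, and 0.001 after adjustment over 100 relations. Without the 2 libraries farthest from the median of the markers r was 0.619, and after removal of each condition's mean it was 0.698. With the olfactory markers Itpka had r of -0.590 and rho of -0.655 (permutation p = 0.00068 and 0.00016, adjusted 0.0227 and 0.008), with r of -0.538 without the 2 farthest libraries and -0.590 within conditions. The summed level of the 8 olfactory markers ran from 2194 to 22678 in WT vehicle, from 4226 to 14868 in HT vehicle, from 2540.3 to 20135 in HT fluoxetine and from 1175 to 11179 in HT lithium. What part the makeup of the dissections has in the group values of Itpka was not tested.

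**Figure D4:**
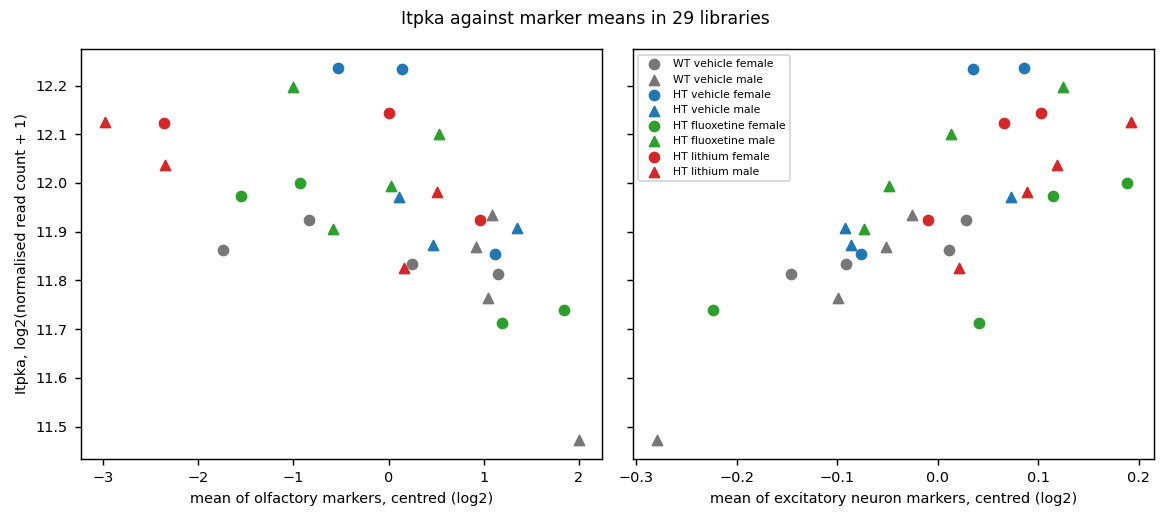
Itpka, as log2(normalised read count + 1), in the 29 libraries against the centred mean of the olfactory markers (left) and of the excitatory neuron markers (right), with colours for conditions, circles for females and triangles for males. Itpka is lower where the olfactory mean is higher (r = -0.590) and higher where the excitatory mean is higher (r = 0.746), and WT vehicle male 3 has the highest olfactory mean and the lowest Itpka.

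Itpkb followed the astrocyte markers, with r of 0.542 and rho of 0.501 (permutation p = 0.00259 and 0.0063, adjusted 0.0324 and 0.063). That relation was weaker within conditions (r = 0.243) and without the 2 farthest libraries (r = 0.392). Of the 100 relations between the 10 genes and 10 marker lists, 8 had an adjusted p under 0.05 for Pearson's r. The other 5 were those of Itpka with astrocyte markers (r = -0.553, within conditions -0.331), Itpk1 with excitatory (0.566, within conditions 0.420) and myelin markers (0.556, within conditions 0.587), Bpnt1 with interneuron markers (0.624, within conditions 0.668) and Impa2 with myelin markers (0.565, within conditions 0.611). Without the 2 farthest libraries these 5 values were -0.512, 0.426, 0.517, 0.528 and 0.355. By Spearman's rho their adjusted permutation p was 0.0256, 0.116, 0.0423, 0.017 and 0.0541 in the same order. Impa2 with striatal markers passed by rho (0.537, adjusted permutation p = 0.0423) but not by r (0.496, adjusted 0.0597), with r of 0.672 within conditions.

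The genes whose log2 values were most like each member's over the 29 libraries were searched among 13828 genes. Itpka was most like Prkar1b (r = 0.941), a regulatory subunit of protein kinase A, and Stx1a (0.926), a syntaxin of synaptic vesicle release. Itpk1 was most like Nefh (0.911), the heavy neurofilament, and Parp1 (0.900). Slc5a3 was most like Ubn1 (0.869) and Zhx3 (0.792), and Ipmk most like Homer1 (0.772), a postsynaptic scaffold, and Cebpz (0.772). For the phosphatases the closest genes were Ufm1 (0.764) and Oaz2 (0.751) for Impa1, Rell1 (0.694) and Nfe2l3 (0.683) for Impa2, Bbs1 (0.736) and Cdc23 (0.615) for Inpp1, and Stip1 (0.738) and Arf1 (0.730) for Bpnt1. Isyna1 was most like Sult1a1 (0.711) and Grn (0.710). Itpkb was most like Ptprc (0.692), the leukocyte antigen CD45, and Ighg2c (0.680), an immunoglobulin constant region. All these values are descriptions over libraries that share tissue and processing, and the best of many genes is high by selection.

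Around these 10 genes, 58 further genes of the inositol pathway were tested in 7 lists. The lists were chosen by role, with earlier results of these data known. In lithium against vehicle 0 of the 58 were called, with 29 positive and a median log2 difference of 0.0019. Lipid synthesis and the phosphoinositide kinases had 9 of 13 positive (median 0.034), with the smallest p for Pip4k2b (0.087, limma adjusted p = 0.382). The phospholipase C enzymes, which release the trisphosphate, had 2 of 12 positive (median -0.073), with the smallest p for Plcd1 (-0.17, limma adjusted p = 0.406). Among the 3 receptors that the trisphosphate opens, Itpr3 had the smallest p (-0.24, limma adjusted p = 0.408) and 1 was positive (median -0.011). Other phosphatases of inositol phosphates and phosphoinositides had 8 of 14 positive (median 0.028), with Inpp5j at -0.53 (limma adjusted p = 0.406).

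Kinases and pyrophosphatases of the higher inositol phosphates had 5 of 11 positive (median -0.0077), with the smallest p for Ippk (0.10, limma adjusted p = 0.441), which makes hexakisphosphate. Of other inositol transport and breakdown, Slc2a13, the proton/myo-inositol cotransporter, was at 0.11 (limma adjusted p = 0.591), and both genes tested were positive (median 0.091). Impad1, of the same lithium-sensitive phosphatase family as Bpnt1, was at 0.10 (limma adjusted p = 0.496), and its list with the phosphoglucomutases had 2 of 3 positive (median 0.012). Miox, Fbp1 and Fbp2 were not analysed here. Because Slc5a3 is known as a target of the tonicity factor NFAT5, 5 tonicity-responsive genes were read beside it. None was called, 2 were positive (median -0.045), and the smallest p was that of Hspa4l (0.13, limma adjusted p = 0.379).

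**Figure D5:**
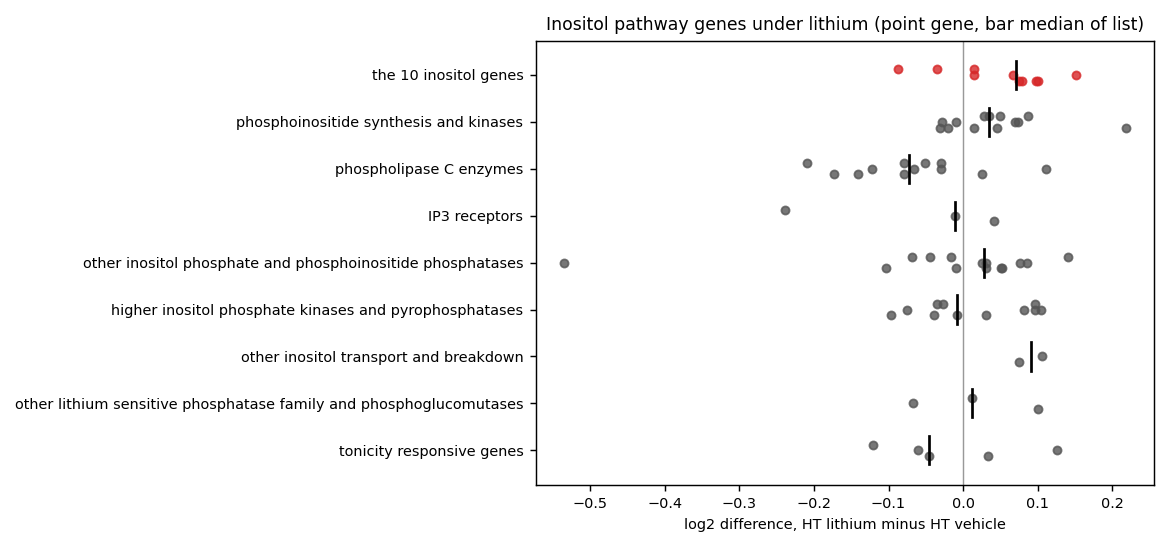
Log2 difference of HT lithium minus HT vehicle for the 10 inositol genes (red) and for 8 further lists of pathway and tonicity genes (grey), 1 point per gene, with a bar at the median of each list. No gene shown passed the test; the medians run from -0.073 (phospholipase C enzymes) to 0.091 (other transport and breakdown).

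Over all 7 comparisons 1 of the 58 further genes was called, in HT lithium against WT vehicle, which is 1.72% of them beside 1.9% of all genes there. Pip4k2c, a phosphatidylinositol 5-phosphate 4-kinase, averaged 4379.8 ± 181 (SD, n = 8) in WT vehicle, 4719 ± 177 (n = 6) in HT vehicle, 4549.9 ± 232 (n = 8) in HT fluoxetine and 4863 ± 278 (n = 7) in HT lithium. It was higher in HT lithium than in WT vehicle by 0.15 ± 0.037 (SE, log2, fold 1.11, limma adjusted p = 0.0301). This call was kept in 11 of 24 alternatives and lost in 13, with adjusted p from 0.00516 to 0.281. The highest was without the 10 libraries of high striatal or olfactory markers, where the difference was 0.15. The difference was smaller with the striatal and olfactory marker means as covariates (0.10, limma adjusted p = 0.158). It was also smaller with quantile normalisation (0.11, limma adjusted p = 0.1025), and both settings ended the call. Leaving out any 1 of HT lithium female 2, female 3, male 1, male 3 and male 4, or of WT vehicle female 2, female 3, male 1, male 2 and male 3, also ended it (adjusted p from 0.05225 to 0.08605). Against HT vehicle the lithium difference of Pip4k2c was 0.046 ± 0.040 (limma adjusted p = 0.675).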

How the data were processed

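Bulk RNA sequencing of prefrontal cortex from 29 mouse libraries was available as 1 table. Its values are a normalised signal per gene and library, as deposited by the authors: the values themselves show read counts scaled by a size factor for each library. Within a tolerance of 0.0001, 100% of the values were whole multiples of 1 step per library, so whole reads were recovered. Per the submitters' processing notes, which state no role or order, the names are GRCm38, DESeq2 1.19.11, Salmon 0.11.2 and R 3.6.0. Libraries were made with a stranded kit, per the labels' protocols. The annotation release and strand setting are not given in the sources used here. Of 18240 identifiers, 18227 matched the GENCODE M21 annotation of GRCm38, which gave names, positions and exon lengths. The number of columns of values not used was 0.

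Values were taken as log2(value + 1). A gene needed a value of 10 or more in 3 or more libraries, and 17881 met this, all 10 members among them. The limma 3.58.1 fit (R 4.3.3, intensity trend) had a mean for each of the 8 groups of genotype, treatment and sex over all 29 libraries, with 21 residual degrees of freedom. Female and male differences were averaged with equal weight. Tests were two-sided, p-values were adjusted by Benjamini-Hochberg across these genes, and the threshold was 0.05. Fold changes are on the log2(value + 1) scale. The scripts were tested on simulated data. Relations to marker means were tested by permutation with 100000 resamples.

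The members, 8 lists of further pathway and tonicity genes and 10 lists of cell type markers were chosen with earlier results of these data known. Named were all members, every list gene past the threshold or else the one with the smallest p under lithium, Tbr1, genes that overlap a member's exons, and the 2 genes most like each member (Pearson's r, mean value of at least 50). Marker genes named for being called were chosen after their values were seen.

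Alternatives were quantile normalisation, a pseudocount of 10, no filter, only the groups compared, the replicate number of the title as a block, striatal and olfactory marker means as covariates, leaving out the 10 libraries high in either, count tests of the recovered reads (edgeR 4.0.16, DESeq2 1.42.0), and leaving out each library in turn.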

Additional observations from a re-analysis of the deposited data

Results flagged for a closer look

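In the 4 conditions, each of the 10 inositol genes was searched for a library far from the others of its group, which made 40 groups. Chance flags about 1 in 20 such groups, and 2 were found. Itpk1 was lowest in HT fluoxetine female 1, at 1379 normalised read counts, with the nearest of the 8 libraries at 1600.2, so that the gap was 0.582 of the whole range. Itpka was lowest in WT vehicle male 3, at 2841, with the nearest of the 8 libraries at 3479 and a gap of 0.596 of the range. In these libraries the mean of the olfactory markers lay 1.69 and 1.84 (log2) above the median library, the highest values among the 29. The part of the olfactory markers in either value was not tested. The female minus male difference of the lithium difference was called for 0 of the 10 genes (limma; 523 of all genes, and 0 of the 10, had an unadjusted p under 0.05; edgeR called 0 genes).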

How the results depend on the processing

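Over 70 results (10 genes in 7 comparisons), 1630 values were recomputed, and 1628 kept their side of the threshold. The 2 that passed were Itpka in HT lithium minus WT vehicle by DESeq2 (0.22, adjusted p = 0.0484) and Itpk1 in the same comparison without WT vehicle male 4 (0.20, limma adjusted p = 0.0257), so the count of the 10 genes called there was 1 by DESeq2 and ran from 0 to 1 over left-out libraries. DESeq2 gave no adjusted p for 7 of its 70 values. The sign changed in 117, in 105 by less than 1 SE and in 12 by more. With marker means as covariates, Itpka was at -0.072 in lithium minus vehicle and -0.017 in lithium minus fluoxetine. Without the 10 libraries of high striatal or olfactory markers, female 4 was the only HT fluoxetine female left. The female part of each fluoxetine difference in that fit therefore rests on 1 library. There, fluoxetine minus vehicle was -0.045 for Inpp1 and 0.059 for Itpka. Lithium minus fluoxetine was -0.039 for Impa1, 0.031 for Inpp1, 0.010 for Isyna1 and -0.061 for Itpka. HT fluoxetine minus WT vehicle was 0.050 for Impa1, -0.049 for Inpp1 and -0.087 for Isyna1. In the same fit the sex difference of Ipmk under lithium was 0.079. The cause was not tested.

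Counts of genes called over the whole table moved more. In HT vehicle minus WT vehicle (37) there were 8 with only the groups compared, 133 with marker covariates, 2 without the 10 libraries and 212 by DESeq2, and over left-out libraries from 2, when HT vehicle female 1 was left out, to 176, when WT vehicle male 4 was. In HT lithium minus WT vehicle (340) there were 163 with covariates, 25 without the 10 libraries and 588 by DESeq2, and 85 (without HT lithium female 3) to 723 (without WT vehicle male 4). In HT fluoxetine minus WT vehicle (34) there were 0 with only the groups compared, 89 with covariates, 5 without the 10 libraries and 96 by DESeq2, and 10 (without HT fluoxetine female 4) to 98 (without HT fluoxetine female 1). Lithium minus vehicle (0) had 32 by DESeq2 and 0 without any 1 library. Fluoxetine minus vehicle (0) had 2 without the 10 libraries, 6 by DESeq2 and 0 to 1 over left-out libraries. Lithium minus fluoxetine (0) had 2 without the 10 libraries, 2 by DESeq2 and 0 to 1 over left-out libraries. The sex difference (0) had 1 with only the groups compared and 2 without the 10 libraries. Replicate numbers were taken from the titles; for HT vehicle females the library names run 2 to 4 where the titles run 1 to 3, and that numbering was not tried. No pairing of libraries by the title numbers was evident. Over 94 pairs with the same number the median correlation of deviations was -0.014, and 14 were over 0.1. Of the 29 libraries, 4 correlated best with their own number. With the replicate block, 82 genes were called in HT vehicle minus WT vehicle and 63 in HT fluoxetine minus WT vehicle, and 0 of the 10 inositol genes in any comparison (lowest adjusted p 0.0501, Ipmk in HT lithium minus WT vehicle). Tbr1 against WT lost its call in 2 of 23 alternatives for HT vehicle, 0 of 24 for HT lithium and 1 of 25 for HT fluoxetine. Impa2, with 113 to 208 reads per library, is the least precise of the 10 genes.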
